A study of Cyanidioschyzon merolae strain 10D with 6 samples.

Results

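Transposable element (TE) copies lying within 20 kb of a chromosome end were followed in poly(A) RNA of Cyanidioschyzon merolae strain 10D, a unicellular red alga of hot acid springs, and of its mutant line Cme(z)-1. A copy was taken as near an end when it started less than 20 kb from the first base of a nuclear chromosome, or ended less than 20 kb from the last annotated base. The choice used position alone and no measured value. It gave 258 of the 4958 nuclear copies (5074 copies with those of the organelles), spread over all 40 ends of the 20 chromosomes with 3 to 33 copies per end. The other 4700 nuclear copies are called interior copies. The last annotated base stood in for the right end of a chromosome, so a distance of 0 at a right end follows from the definition. Positions are those of the deposited annotation, build ASM9120v1, and left means the end with the lower coordinates.

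The study compared wild type 10D with the Cme(z) mutant, 3 libraries each. Cultures of both were kept in an acidic mineral medium at 42 °C, lit without a break at 80 µmol/m2/s. All 3 mutant libraries carry the genotype Cme(z)-1, so they stand for 1 line. No label says whether the replicates were separate cultures, and the p-values then measure the spread between these libraries, which may be technical. How reads that match several copies were assigned is not given in the labels, so the split of reads between near-identical copies is uncertain throughout. A library held 7860491 to 10754544 counts in genes and TE copies. The gene CMQ156C, which encodes the E(z) protein, had 1776, 1533 and 1770 reads in wild type and 0 in each mutant library, at least 671-fold lower against 3 counts per library (edgeR quasi-likelihood test, adjusted p = 9.2e-07).

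E(z) is the catalytic subunit of Polycomb Repressive Complex 2, which methylates lysine 27 of histone H3, a mark of silent chromatin. In animals and land plants the mark is best known at developmental genes. In C. merolae, as in several other single-celled eukaryotes, it has also been mapped to repeats and to regions beside the telomeres. TEs fall into elements that move through an RNA intermediate, among them the LTR retrotransposons Gypsy and Copia and the LINEs, and DNA transposons that are moved as DNA by a transposase, such as Harbinger, Mutator, hAT and TcMar. The annotation groups copies by superfamily (Gypsy, Copia and so on) and, below it, by repeat family with names such as rnd-1_family-9, which were given by a repeat-finding program and say nothing of function. The 258 copies belonged to 13 superfamilies and 40 repeat families: 147 were LTR elements, 102 DNA transposons and 9 LINEs.

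More reads fell in these copies in the mutant. Of all counts, they held 0.632%, 0.726% and 0.577% in wild type and 1.25%, 1.39% and 1.16% in the mutant. Every mutant library lay above every wild-type library, and the means were 0.645% ± 0.0755 and 1.27% ± 0.114 (SD, n = 3 each), a difference of 0.623 percentage points (exact permutation test, two-sided, p = 0.1, the smallest that 3 against 3 allows). The interior copies, 4700 in number, held 8.42% to 8.80% in wild type and 8.82% to 10.1% in the mutant. Scaled to library size by the trimmed mean method of edgeR, and given as CPM, which divides a count by the scaled library size, the near-end copies summed to 6601 ± 957 CPM in wild type and 12460 ± 1500 CPM in the mutant (SD, n = 3 each). The 10 copies with the most counts held 54.3% of the mutant sum.

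Single copies were tested in one fit over all genes and TE copies, and a copy is called raised or lowered here when its adjusted p was under 0.05 (edgeR quasi-likelihood test, Benjamini-Hochberg adjustment over 7641 rows). Of the 258 copies, 55 were raised and 1 was lowered. Of the rest, 96 did not pass the test, 76 of them with a higher and 20 with a lower fitted level in the mutant, and 106 had too few counts to be tested, including 24 with 0 reads in all 6 libraries. For comparison, 3.40% of all rows tested and 5.43% of the interior copies tested were raised (7.10% of all TE copies), and 1.54% and 1.07% were lowered (1.04% of all TE copies). Counted over all copies with no filter, 21.3% of the near-end copies and 3.02% of the interior copies were raised. A rise of at least 2-fold was called for 48 near-end copies and one of at least 10-fold for 22, against 4.93% and 0.994% of the interior copies tested. The median log2 fold change of the 152 near-end copies tested was 0.82, and that of all rows tested was -0.01. The filter let a copy through on one group alone, so this median describes the tested copies and not all 258. Ranks without a filter gave 87 of 258 copies with all mutant libraries above all wild-type libraries, where 12.7% of the interior copies had that order, and 2 copies with the opposite order (5.74%).

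**Figure D1:**
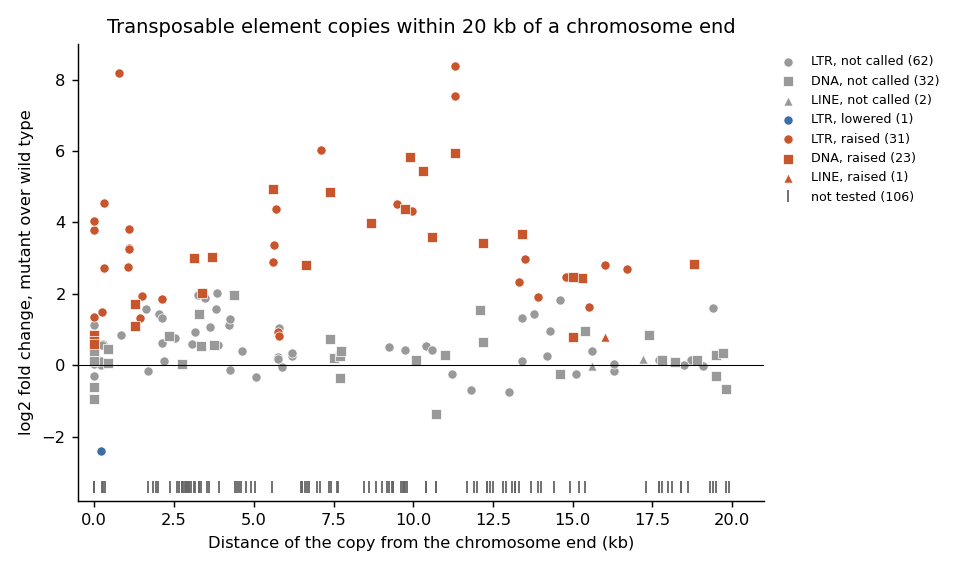
Log2 fold change (mutant over wild type, edgeR) of each tested copy against its distance from the chromosome end in kb; shape gives the TE class, colour the call, and ticks along the bottom the 106 copies not tested. The 55 raised copies lie along the whole 20 kb, and the 1 lowered copy lies within 1 kb of an end.

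The raised copies lay along the whole 20 kb and not only at the tip. Of the copies starting 0 to 5 kb from an end, 22 of 106 were raised, of those at 5 to 10 kb 14 of 56, and of those at 10 to 20 kb 19 of 96, as the plot against distance shows. The sum of the 52 copies at 10 to 15 kb went from 162.1 ± 14.3 to 1552 ± 156 CPM (SD, n = 3 each), with 12 raised. TE_homo_2 and TE_homo_562 held most of this gain, and without them the other 50 copies went from 157.2 ± 15 to 316.7 ± 34.2 CPM. The 36 copies within 1 kb of an end started from the highest level and went from 2878 ± 589 to 4591 ± 732 CPM, with 10 raised and 1 lowered. That is 27.8% raised, against 17.1% at 1 to 5 kb, 25% at 5 to 10 kb, 23.1% at 10 to 15 kb and 15.9% at 15 to 20 kb. Of the copies tested, the share was highest at 5 to 10 kb (50%, against 34.5% within 1 kb). Beyond the limit, between 20 and 40 kb, 13 of 218 copies were raised (125 tested), and further than 100 kb from any end 96 of 3768 (2077 tested). The 2 copies just inside the limit, TE_homo_3079 and TE_homo_3709, were not tested and not called, while of the 2 just outside, TE_homo_1117 had 5.55, 5.64 and 3.66 CPM in wild type and 25.98, 24.18 and 22.46 CPM in the mutant, and TE_homo_1097 had at most 3 reads in any library.

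The share of copies raised is given here by copy length, as a description. Among copies under 200 bp 2 of 70 were raised, from 200 to under 1000 bp 12 of 58, from 1000 to under 2000 bp 12 of 47, from 2000 to under 4000 bp 26 of 70, and at 4000 bp or more 3 of 13. Near the ends the share was thus highest from 2000 to under 4000 bp. Among interior copies the share raised grew with length through every class. In the same order of length it was 0.274%, 2.1%, 3.86%, 13.9% and 20.9% of the interior copies. Among tested copies of 4000 bp or more, 23.1% were raised both near the ends and in the interior. Shorter copies gather fewer reads: 21 of the 24 copies with 0 reads everywhere were under 200 bp. The 13 copies of 4000 bp or more were the most read in sum, at 3160 ± 756 CPM in wild type and 4936 ± 940 CPM in the mutant. By strand, 179 copies were annotated as reading towards the end (42 raised, 1 lowered), 76 as reading away from it (13 raised), and 3 had no strand.

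The annotation also showed a direction that the rule did not use. Of the 21 repeat families with 4 or more near-end copies on a strand, 15 had all of them in a single direction relative to the end, 10 reading outward and 5 inward. The 23 near-end copies of the Gypsy family rnd-1_family-9 all read towards the end, as did the 46 of rnd-1_family-38, while the 20 Harbinger copies of rnd-1_family-57 and the 16 TcMar copies of rnd-1_family-1 all read away from it. Of these 15 families, 8 also have 4 or more interior copies. Of the 480 interior copies of these 8 families, 230 faced the way their near-end relatives did, judged against the nearer end. In 7 of the 8 the interior copies lie in both directions, while the 7 interior copies of rnd-1_family-38 all read outward. The families rnd-1_family-59, rnd-1_family-62, rnd-1_family-65, rnd-1_family-69 and rnd-4_family-493 have 0 interior copies with a strand, and rnd-1_family-51 and rnd-1_family-57 have 1 and 3.

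The largest single rise was that of TE_homo_2, a Gypsy copy of 2485 bp on chromosome 1 (11310 to 13794, minus strand, rnd-1_family-11). It had 21, 17 and 16 reads in wild type and 8518, 6097 and 7037 in the mutant, which is 2.18 ± 0.155 against 727.7 ± 67.8 CPM (SD, n = 3 each). The groups lay far apart, with a log2 fold change of 8.37 ± 0.168 (SE; edgeR, adjusted p = 3.4e-08). Of its length 7.36% lies inside the gene CMA004C, which itself did not pass the test (log2 fold change -0.08, edgeR adjusted p = 0.79). TE_homo_562, another Gypsy copy, of 2646 bp on chromosome 5 (11276 to 13921, rnd-2_family-22) with no gene overlap, had 1.89, 2.69 and 3.66 CPM in wild type and 511.4, 573.3 and 439.0 CPM in the mutant (log2 fold change 7.54 ± 0.22 SE, edgeR adjusted p = 4.6e-07). Both copies lie 11.3 kb from a left end and are annotated on the minus strand, reading towards that end. Each also overlaps 1 other annotated TE copy, for TE_homo_2 the Harbinger copy TE_homo_1 (10699 to 12853). To which copy the reads on shared bases belong is uncertain. Per kb of copy, TE_homo_2 went from a mean of 0.876 to 292.8 CPM.

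Other Gypsy copies among the 15 with the largest called rises were less read. TE_homo_4412, also of rnd-2_family-22, lies 5.69 kb from the left end of chromosome 20 and had 10.33, 15.78 and 8.08 CPM in wild type and 207.8, 284.3 and 211.5 CPM in the mutant (log2 fold change 4.36 ± 0.24 SE, edgeR adjusted p = 1.7e-05). TE_homo_3087, a 219 bp piece of the same family on the left end of chromosome 16, had 0, 0 and 2 reads in wild type and 6.22 ± 1.20 CPM in the mutant (SD, n = 3; adjusted p = 0.0012, edgeR), a ratio of summed reads of 75.5 with a 95% counting interval (exact binomial) of 20.6 to 628.4. TE_homo_924 on the right end of chromosome 6 had 0 reads in each wild-type library and 45, 24 and 53 in the mutant, at least 10.95-fold higher against 3 counts per library. It overlaps another TE copy. TE_homo_2857 on the left end of chromosome 15 rose from 0.205 ± 0.266 to 4.99 ± 1.60 CPM and TE_homo_4066 on the right end of chromosome 18 from 0.255 ± 0.221 to 5.13 ± 1.09 CPM (edgeR adjusted p of 0.0054 and 0.0041). All wild-type libraries lay under 1 CPM in these last 2 copies and all mutant libraries above 3 CPM. Both of these copies also overlap another TE copy.

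DNA transposon copies were also among those with the largest rises. Harbinger copy TE_homo_404 of rnd-1_family-8, on chromosome 4 (11258 to 13234), had 0.444, 0.641 and 1.39 CPM in wild type and 54.19, 52.95 and 45.85 CPM in the mutant, a log2 fold change of 5.95 ± 0.314 (SE; edgeR adjusted p = 1.4e-05). The annotated Gypsy copy TE_homo_405 (11872 to 13234) lies wholly within TE_homo_404. The Harbinger copy TE_homo_272, 9.73 kb from the left end of chromosome 3, went from 1.71 ± 0.193 to 35.97 ± 2.75 CPM and TE_homo_4071, 5.59 kb from the left end of chromosome 19, from 0.599 ± 0.155 to 18.95 ± 5.10 CPM (edgeR adjusted p of 9e-06 and 5.9e-05). Of the TcMar copies, members of the Tc1/mariner group that move by a cut-and-paste transposase, TE_homo_557, TE_homo_1114 and TE_homo_4072 had wild-type means of 0.121, 0.0421 and 0.50 CPM and mutant means of 5.83, 3.07 and 14.38 CPM. In each of the 3 the lowest mutant library lay above the highest wild-type library (edgeR adjusted p of 0.0011, 0.0019 and 0.006). TE_homo_557 and TE_homo_1114 had at most 2 reads in a wild-type library, and their ratios of summed reads were 49.0 (95% counting interval 16.5 to 239.7) and 77.2 (13.5 to 3081). Like TE_homo_404, the copies TE_homo_272, TE_homo_557 and TE_homo_1114 each overlap another TE copy. In all, 124 near-end copies had a wild-type mean under 1 CPM, of which 102 were not tested and 19 were raised.

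Of the 27 copies at 50 CPM or more in wild type, 7 were raised. The 5 highest were TE_homo_2099, TE_homo_1840, TE_homo_1102, TE_homo_2855 and TE_homo_1591, of which TE_homo_1102 alone was raised. TE_homo_1102, a Mutator copy of 844 bp at the left end of chromosome 8, had 516.2, 498.0 and 424.7 CPM in wild type and 802.1, 1284 and 982.0 CPM in the mutant (log2 fold change 1.09 ± 0.185 SE, edgeR adjusted p = 0.0099). It overlaps the gene CMH001C over 93.0% of its length, whose own log2 fold change of 0.52 did not pass (adjusted p = 0.077). TE_homo_2099, a Gypsy copy of 8899 bp that reaches the right end of chromosome 11 (843720 to 852618), had 518.1, 934.1 and 461.0 CPM in wild type and 1209, 1207 and 862.1 CPM in the mutant (log2 fold change 0.78, edgeR adjusted p = 0.17). The groups overlap there, with wild-type replicate 2 above the lowest mutant library. TE_homo_1840, the longest near-end copy at 8913 bp, lies 9.73 kb from the left end of the same chromosome and had 474.3, 765.6 and 414.9 CPM in wild type and 768.2, 903.2 and 544.7 CPM in the mutant, again overlapping (adjusted p = 0.46, edgeR).

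The lowered copy was TE_homo_1332, a Gypsy copy of rnd-1_family-9 and the outermost copy at the left end of chromosome 9 (215 to 3339). It had 17.77, 17.83 and 6.06 CPM in wild type and 2.41, 3.39 and 2.14 CPM in the mutant, a log2 fold change of -2.40 ± 0.439 (SE; edgeR adjusted p = 0.015). The groups did not overlap, but the call was lost without wild-type replicate 1, mutant replicate 1 or mutant replicate 3, with an adjusted p of up to 0.07.

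Summed by chromosome end, 18 of 40 ends were raised and none was lowered (edgeR; 3.00% of all rows were raised in the table with the end sums; 0 ends were lowered at an unadjusted p under 0.05, with DESeq2 or with limma voom). Of the 18, 11 were left and 7 right ends, 14 rose by at least 2-fold and 6 by at least 8-fold. Both ends were raised on 4 chromosomes and neither on 6. The 6 ends with the largest rises were all left ends. The left end of chromosome 1 went from 15.65 ± 2.81 to 816.2 ± 79.4 CPM (log2 fold change 5.70) and that of chromosome 5 from 16.21 ± 2.91 to 528.3 ± 68.9 CPM (5.02), with 87.7% and 93.8% of their counts in TE_homo_2 and TE_homo_562. Leaving out copies that overlap a gene takes TE_homo_2 away, and the left end of chromosome 1 then had a log2 fold change of 0.04 (edgeR adjusted p = 0.96). The other 4 were the left ends of chromosomes 18, 4, 19 and 20, with log2 fold changes of 3.73, 3.62, 3.52 and 3.15 (edgeR adjusted p of 0.00021 or less). The left end of chromosome 20 showed the change in several copies: all 3 of its copies were raised, and the end went from 43.64, 60.29 and 59.37 CPM to 457.9, 523.9 and 469.0 CPM. The copy with the most counts at its end was itself raised at 15 of the 40 ends. At 28 of the 40 ends every mutant library lay above every wild-type library, 10 of them without passing the test. Of all single genes and copies tested, 12.1% had that order.

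**Figure D2:**
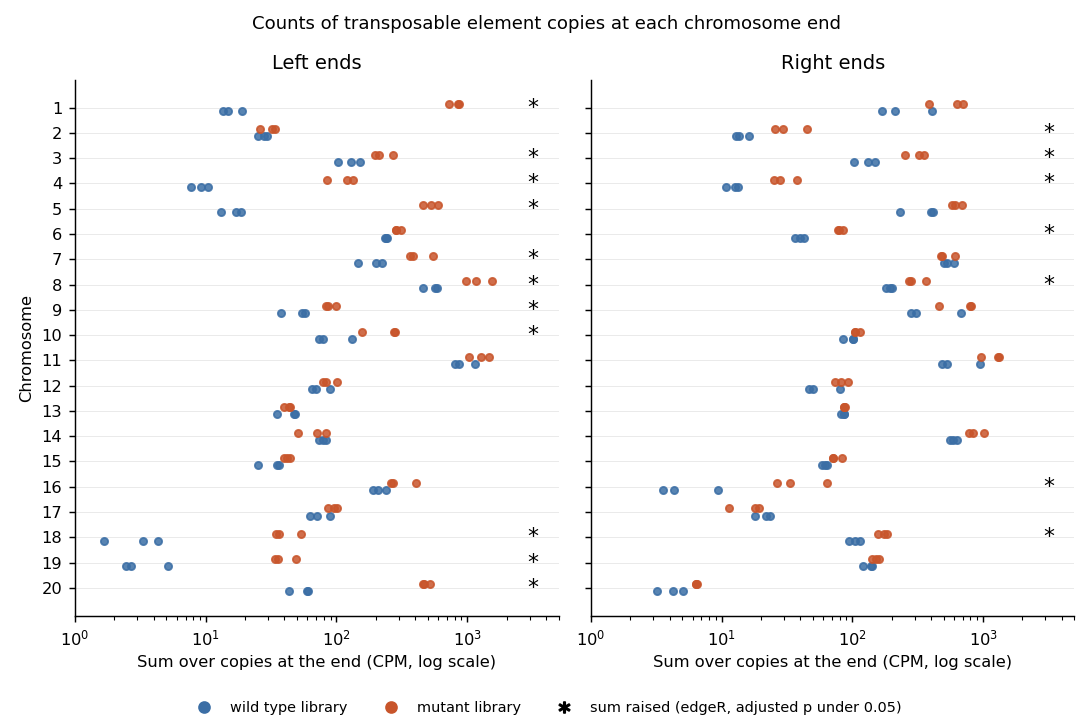
Sum over the copies within 20 kb of each left and right chromosome end, in CPM on a log scale, with 1 point per library (blue wild type, orange mutant, n = 3 each) and a star where the sum was raised. The 6 left ends of chromosomes 1, 4, 5, 18, 19 and 20 show the widest gaps between groups, while at 12 ends the groups overlap.

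Some calls of end sums changed when single libraries were left out. Without one library at a time, the left ends of chromosomes 3, 9 and 10 and the right ends of chromosomes 2 and 8 lost their call in at least one case, with an edgeR adjusted p of up to 0.12. The left end of chromosome 10 lost it without any one of wild-type replicate 1 or 3 or mutant replicate 1 or 2. Without wild-type replicate 2 the right ends of chromosomes 1, 9, 11 and 12 became raised, with log2 fold changes of 1.59, 1.23, 1.23 and 0.77 (edgeR adjusted p of 0.011, 0.029, 0.0087 and 0.018). With the copies that overlap a gene left out, the right end of chromosome 3 lost its call (log2 fold change 0.24), and the right end of chromosome 14 and the left end of chromosome 16 gained one (2.82 and 4.48).

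The copy nearest each end was one of 6 repeat families, and the families differed in what happened to it. Of the 40 outermost copies 15 were raised, 1 was lowered, 17 did not pass and 7 were not tested. A Gypsy copy of rnd-1_family-9, 3091 to 3161 bp long and reading towards the end, was outermost at 16 ends, of which 2 were raised and 1 lowered. A Copia copy of rnd-1_family-62, 3458 to 3502 bp long and reading towards the end, was outermost at 6 ends and raised at all 6, with log2 fold changes of 2.76 to 4.04. A Mutator copy of rnd-1_family-59, 844 to 915 bp long, was outermost at 4 ends and raised at all 4, by 0.68 to 1.71 on the log2 scale. The long Gypsy copies of rnd-1_family-2, 8173 to 8899 bp, held 5 ends with 2 raised, the Harbinger copies of rnd-1_family-57, all reading away from the end, held 8 with 1 raised (TE_homo_1331, log2 fold change 0.59, a call lost without any one of 5 libraries), and a 126 bp fragment, TE_homo_4876, the right end of chromosome 20.

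**Figure D3:**
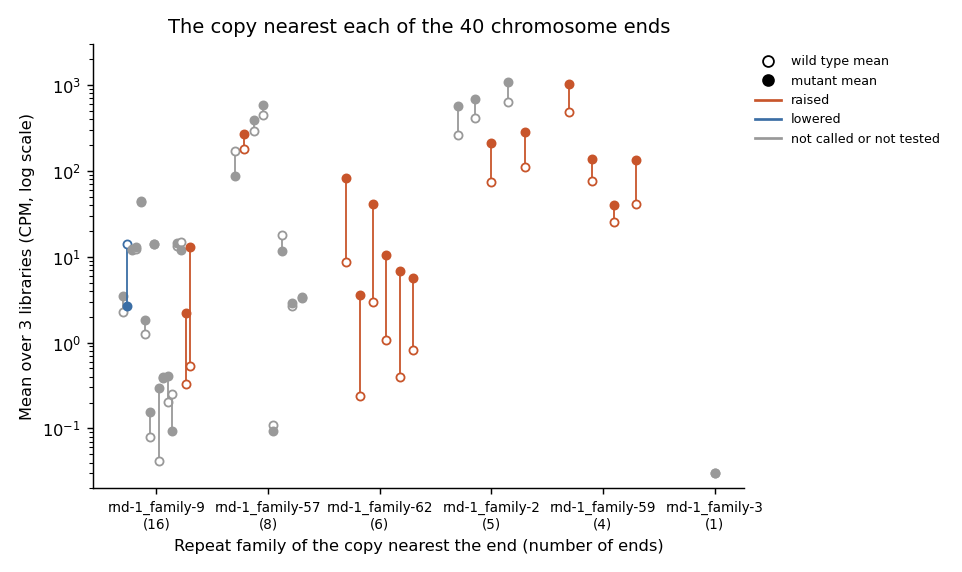
Mean CPM over 3 libraries on a log scale for the copy nearest each of the 40 chromosome ends, grouped by repeat family, with open points for wild type and filled points for the mutant (a mean of 0 is drawn just above the lower limit of the axis). All 6 rnd-1_family-62 and all 4 rnd-1_family-59 copies were raised, while 13 of the 16 rnd-1_family-9 copies were not called or not tested.

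The 6 outermost Copia copies of rnd-1_family-62 started from different levels. TE_homo_0 at the left end of chromosome 1 had 8.11, 6.03 and 11.62 CPM in wild type and 75.9, 110.2 and 64.3 CPM in the mutant. TE_homo_3712 at the left end of chromosome 18 had 3.11, 1.41 and 4.29 CPM in wild type and 36.1, 53.55 and 34.48 CPM in the mutant. The other 4, TE_homo_267, TE_homo_402, TE_homo_559 and TE_homo_560, had wild-type means of 0.239 to 1.07 CPM and mutant means of 3.56 to 10.58 CPM. In each of the 6 copies no mutant library was as low as any wild-type library, and mutant replicate 2 was the highest. TE_homo_560 lost its call without wild-type replicate 1 (edgeR adjusted p = 0.086). The family's other 4 near-end copies are pieces of 1181 to 1199 bp more than 10 kb from the end. None of them was raised, and their log2 fold changes where tested were 0.53, 0.44 and 1.33.

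Of the rnd-1_family-9 copies at the tip, 8 lay between -0.30 and 0.60 on the log2 scale and did not pass. TE_homo_4411 at the left end of chromosome 20 was raised, with 0.333, 0.385 and 0.884 CPM in wild type and 9.46, 19.7 and 9.22 CPM in the mutant (log2 fold change 4.56 ± 0.503 SE, edgeR adjusted p = 0.0011). TE_homo_4070 at the left end of chromosome 19 was raised from 0.328 ± 0.155 to 2.23 ± 0.161 CPM (adjusted p = 0.01, edgeR), a call lost without wild-type replicate 1. At both of these ends the whole end was raised, and at the left end of chromosome 9 the copies further in, TE_homo_1333 and TE_homo_1334, were raised while the outermost copy was lowered (the call of TE_homo_1334 was lost without mutant replicate 1). The family's summed near-end level was 133.8 ± 22.3 CPM in wild type and 153.6 ± 12.3 CPM in the mutant (SD, n = 3 each) and did not pass (edgeR adjusted p = 0.49).

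The outermost rnd-1_family-59 copies of the Mutator superfamily rose by less and from higher levels. TE_homo_926 at the left end of chromosome 7 had 48.52, 39.0 and 34.74 CPM in wild type and 88.15, 164.2 and 149.4 CPM in the mutant, TE_homo_749 at the right end of chromosome 5 had means of 76.4 ± 8.83 and 136.4 ± 38.7 CPM, and TE_homo_925 at the right end of chromosome 6 had means of 25.24 ± 1.03 and 40.46 ± 4.56 CPM. The groups did not overlap in any of the 3. The calls of TE_homo_749 and TE_homo_925 (edgeR adjusted p of 0.048 and 0.03) were each lost without any one library other than mutant replicate 1, with an adjusted p of up to 0.13.

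Among the rnd-1_family-2 Gypsy copies, TE_homo_401 at the right end of chromosome 3 was raised, with 112.8, 127.4 and 89.68 CPM in wild type and 289.9, 322.9 and 234.9 CPM in the mutant (log2 fold change 1.36 ± 0.16 SE, edgeR adjusted p = 0.0015). TE_homo_1592 at the left end of chromosome 10 had 58.85, 104.3 and 59.37 CPM against 242.3, 244.3 and 140.4 CPM (adjusted p = 0.015, edgeR), and this call was lost without any one of 4 libraries. TE_homo_130, TE_homo_1591 and TE_homo_2099, at the right ends of chromosomes 1, 9 and 11, did not pass. In all 5 wild-type replicate 2 was the highest wild-type library. The family's near-end sum was 2054 ± 834 CPM in wild type and 3584 ± 839 CPM in the mutant (adjusted p = 0.19, edgeR), and it was raised without wild-type replicate 2 (log2 fold change 1.18, adjusted p = 0.034).

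By superfamily, 4 of the 11 near-end sums tested were raised and none lowered (edgeR; 2.76% of all rows were raised in that table; 0 sums were lowered at an unadjusted p under 0.05, with DESeq2 or with limma voom). TcMar, 20 copies, went from 14.43, 15.78 and 16.29 CPM to 46.86, 55.73 and 51.62 CPM (log2 fold change 1.73, edgeR adjusted p = 0.00016). The 4 hAT copies, of a DNA transposon group with hobo, Ac and Tam3 as its named members, went from 10.12 ± 3.74 to 50.36 ± 15.1 CPM (2.31, adjusted p = 0.0032), and 92.4% of the mutant sum lay in TE_homo_403 at the left end of chromosome 4. That copy lies wholly inside the gene CMD002C, which was itself raised (log2 fold change 3.27), and their reads cannot be told apart. Mutator, 10 copies, went from 650.1 ± 63.9 to 1372 ± 320 CPM (1.08, adjusted p = 0.012), and Gypsy, 110 copies, from 2709 ± 918 to 6213 ± 888 CPM (1.20, adjusted p = 0.035). The Gypsy call was lost without wild-type replicate 1 or 3 or mutant replicate 1 or 2 (adjusted p of up to 0.19), and the Mutator call without wild-type replicate 1 (0.057). Copia and Harbinger, with 10 of 36 and 13 of 48 copies raised, had summed log2 fold changes of 0.59 and 0.62 and an adjusted p of 0.056 each (edgeR); both passed with total counts in place of scaling (0.017 and 0.024) and with DESeq2. Without copies that overlap a gene the Harbinger sum had a log2 fold change of 1.91 (adjusted p = 1.4e-05). Academ-H, DTC, TcMar-Tigger and copies of unknown superfamily held 1 raised copy among 20, and their sums and that of TcMar-ISRm11 did not pass.

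The repeat families, a level chosen after the data were seen, separated the copies further: 15 of 31 near-end sums tested were raised and none lowered (edgeR; 2.98% of all rows were raised in that table; 0 sums were lowered at an unadjusted p under 0.05). The calls of rnd-1_family-24 and rnd-1_family-38 (log2 fold changes 0.39 and 1.10, adjusted p of 0.048 and 0.03) were lost without most single libraries, with an adjusted p of up to 0.23 and 0.084. The largest rise was that of the Harbinger family rnd-1_family-8, from 4.11, 3.85 and 7.45 CPM to 102.3, 93.08 and 104.7 CPM (log2 fold change 4.29). It has a copy at each of 13 ends, and 5 of them, at the left ends of chromosomes 4, 5 and 19 and the right ends of 6 and 16, were raised. Without wild-type replicate 1, mutant replicate 1 or mutant replicate 3, the copies at the left end of chromosome 5 and the right end of 16, TE_homo_561 and TE_homo_3383, lost their calls and 3 were raised (edgeR adjusted p of up to 0.12 and 0.083). The other 8 had too few reads to be tested, with means of at most 1.15 CPM in either group. The Gypsy family rnd-2_family-22 rose from 60.29 ± 8.69 to 827.4 ± 106 CPM with 5 of 8 copies raised, and rnd-1_family-0 from 0.862 ± 0.459 to 9.42 ± 1.76 CPM with 3 of 5 raised. The TcMar family rnd-1_family-1 had 4 of its 16 copies raised, at the left ends of chromosomes 6, 8 and 19 and the right end of 4, and 9 not tested. The copy at the left end of chromosome 6, TE_homo_753, lost its call without any one wild-type library (edgeR adjusted p of up to 0.073). The other 3 copies of rnd-1_family-1 were tested and did not pass, and its 9 untested copies had means of at most 1.40 CPM in either group. A copy goes untested because its counts are low. The low level of the untested copies of rnd-1_family-1 and rnd-1_family-8 therefore shows no difference between ends.

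Some families near the ends did not pass. The 4 Academ-H copies of rnd-1_family-65, 1943 to 1958 bp long and 7.52 to 7.72 kb from their ends, summed to 260.5 ± 37.4 CPM in wild type and 291.3 ± 11.5 CPM in the mutant (edgeR adjusted p = 0.57). Of the 16 near-end copies of rnd-1_family-5, the Copia family with the most interior copies, 1 was raised, and the sum went from 172.6 ± 3.05 to 198.7 ± 16.0 CPM (adjusted p = 0.31, edgeR). Of the 9 Copia copies of rnd-1_family-51, all reading towards the end, 3 were raised, among them TE_homo_1112 at the left end of chromosome 8, from 12.96 ± 3.18 to 96.37 ± 3.78 CPM. The most read copy of that family, TE_homo_1100 at the right end of chromosome 7, had 361.2, 391.8 and 364.8 CPM in wild type and 476.2, 476.9 and 346.4 CPM in the mutant, so that its groups overlapped.

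Near-end and interior copies of one superfamily were then compared by summing each and testing the difference between their log2 fold changes in one edgeR model. The near-end change was larger in 7 of 10 superfamilies and smaller in none (edgeR, adjusted p under 0.05; 0 smaller also at an unadjusted p under 0.05), and none of the 10 interior sums passed its own test, adjusted or unadjusted. In TcMar the difference was 1.47 on the log2 scale (edgeR adjusted p = 2e-06), with interior copies at 2666 ± 151 and 3195 ± 166 CPM. In hAT it was 2.25 (0.00022), in Mutator 1.29, in Gypsy 1.15, in Harbinger 0.59 and in Copia 0.55 (each 0.0021), and in TcMar-ISRm11 0.97 (0.0032). The interior Gypsy copies, 713 in number, summed to 19100 ± 1270 CPM in wild type and 19690 ± 2270 CPM in the mutant, and the 1458 interior Copia copies to 29450 ± 1200 and 30240 ± 2620 CPM. Singly, 43 of the 383 interior Gypsy copies tested and 29 of the 937 interior Copia copies tested were raised. A sum weighs copies by their reads: TE_homo_1102 alone held 74.5% of the near-end Mutator sum in the mutant. For hAT that share was 92.4% in TE_homo_403, which lies wholly inside the raised gene CMD002C. For TcMar-ISRm11 it was 77.6% in TE_homo_2098, and the other copy tested, TE_homo_3709, had a log2 fold change of -0.68 and did not pass.

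**Figure D4:**
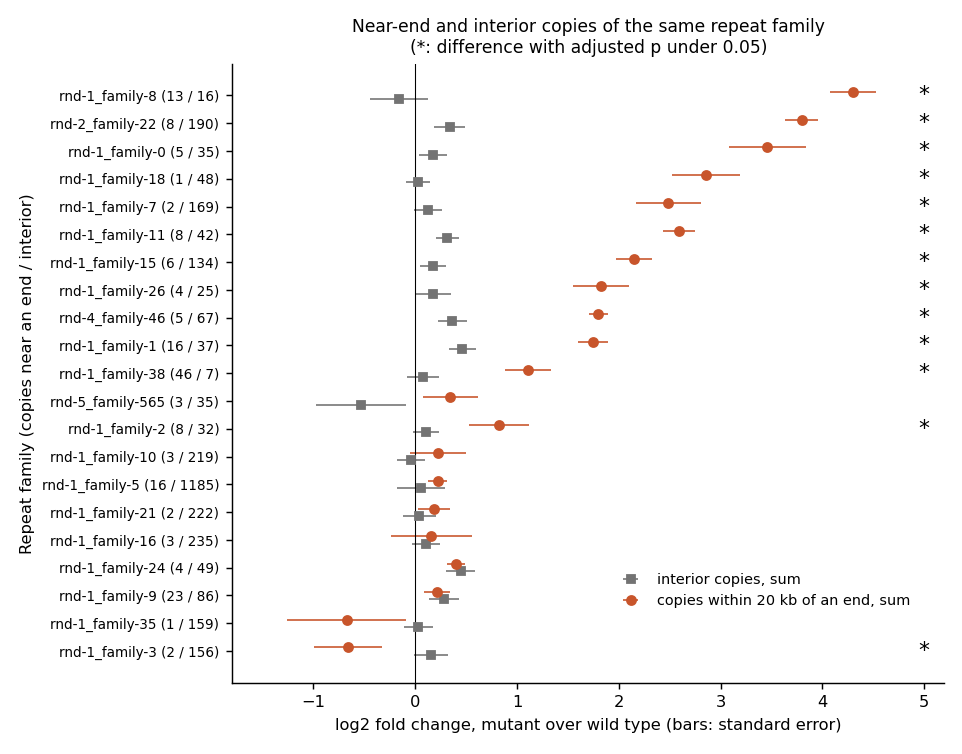
Log2 fold change (mutant over wild type, edgeR, bars are standard errors) of the summed near-end copies (orange) and the summed interior copies (grey) of 21 repeat families, with the number of copies in each sum and a star where the difference passed. None of the 21 interior sums passed its own test (edgeR, adjusted p under 0.05), while 12 families are higher near the ends and 1, rnd-1_family-3, is lower.

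By repeat family the near-end change was larger in 12 of 21 families and smaller in 1 (edgeR, adjusted p under 0.05), as the plot of both sums shows. None of the 21 interior sums passed its own adjusted test, and 4 had an unadjusted p under 0.05. The widest differences were in rnd-1_family-8 (4.46; interior copies 327.4 ± 58.9 and 288.9 ± 136 CPM), rnd-2_family-22 (3.46; interior copies 3388 ± 96.6 and 4238 ± 256 CPM) and rnd-1_family-0 (3.28; interior copies 396.9 ± 59.4 and 443.5 ± 42.0 CPM). In rnd-1_family-11, which holds TE_homo_2, the difference was 2.27 with 78.1% of the mutant near-end sum in that copy. In rnd-1_family-9, the family most often found at the tip, near-end and interior sums moved by 0.22 and 0.28 on the log2 scale and did not differ beyond their error (difference -0.06, adjusted p = 0.67, edgeR). The family with the smaller near-end change, rnd-1_family-3, rested on the reads of TE_homo_3709 and lost its call without any one of 5 libraries, and rnd-1_family-2 lost its call without any one of 3. Single interior copies were raised in all of these families. Of those tested, 2 of 8 were raised in rnd-1_family-8, 16 of 121 in rnd-2_family-22, 3 of 16 in rnd-1_family-0 and 4 of 26 in rnd-1_family-11. In rnd-1_family-9 it was 9 of 55, in rnd-1_family-3 4 of 89 and in rnd-1_family-2 1 of 19. Over all interior copies tested the share was 5.43%. Near-end and interior copies of a family also differ in length and in how much they resemble other copies, whose part in these differences was not tested.

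Of the 258 copies, 58 overlap an annotated gene, and 15 of these and 40 of the other 200 were raised. The share of all counts in the 200 copies with no gene overlap was 0.257%, 0.284% and 0.224% in wild type and 0.534%, 0.541% and 0.525% in the mutant, again with no overlap between groups. The 58 copies touch 37 genes, all tested, of which 13 were raised and none lowered (edgeR; of all genes tested 1.29% were raised and 1.83% lowered; 0 of the 37 were lowered at an unadjusted p under 0.05, with DESeq2 or with limma voom). At 10 ends the outermost copy and the outermost gene were both raised. The 6 outermost rnd-1_family-62 copies each overlap a gene. At the left end of chromosome 4, TE_homo_402 and TE_homo_403 together cover 49.9% of CMD002C. At the other ends of this family the outermost copy covers 42.9% to 43.6% of its gene. All 6 genes were raised: CMD191C went from 7.63 ± 0.985 to 224.6 ± 29.6 CPM, CMB162C from 13.87 ± 5.01 to 191.1 ± 6.29 CPM, and CMA001C, CMD002C, CME001C and CMR001C had log2 fold changes of 2.59, 3.27, 3.19 and 3.91 (edgeR adjusted p of 0.00013 or less). CMP358C, overlapped over 37.7% by TE_homo_3384, went from 20.74 ± 8.44 to 628.9 ± 99.7 CPM while the copy went from 4.59 ± 3.22 to 36.92 ± 20.5 CPM, a call of the copy that was lost without wild-type replicate 1 (edgeR adjusted p = 0.07). The libraries do not mark strand, so reads of a gene and of a copy on the same bases cannot be told apart.

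The call of a gene and of its copy differed in several cases. TE_homo_2, TE_homo_1102, TE_homo_1331 and TE_homo_2854 were raised and the genes they touch, CMA004C, CMH001C, CMH283C and CMN338C, did not pass. In the other direction CMA142C was raised, from 29.97 ± 4.24 to 237.7 ± 37.1 CPM (log2 fold change 2.99, edgeR adjusted p = 1.4e-05), while TE_homo_128, which covers 43.6% of it, had too few reads to be tested. CMH282C and CMJ005C were also raised, by 0.44 and 0.93 on the log2 scale, with no raised copy on them.

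The families rnd-1_family-38, rnd-1_family-59 and rnd-4_family-493 hold 59 of the 258 copies. Of these, 28 lie at the left end of chromosome 7, 20 at the right end of 5, 8 at the left end of 8, 2 at the right end of 6 and 1 at the left end of 10, and most are short and overlap another copy. Of the 59, 32 were tested and 8 raised. The run at the left end of chromosome 7 holds 28 copies, 27 of which overlap another, and summed to 208.0, 180.9 and 128.9 CPM in wild type and 360.4, 351.6 and 527.5 CPM in the mutant. The run at the right end of chromosome 5 holds 20 copies and summed to 373.4, 345.4 and 186.7 CPM against 621.1, 525.7 and 504.0 CPM. At both ends the sums of the groups did not overlap, although most single copies in the runs did.

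**Figure D5:**
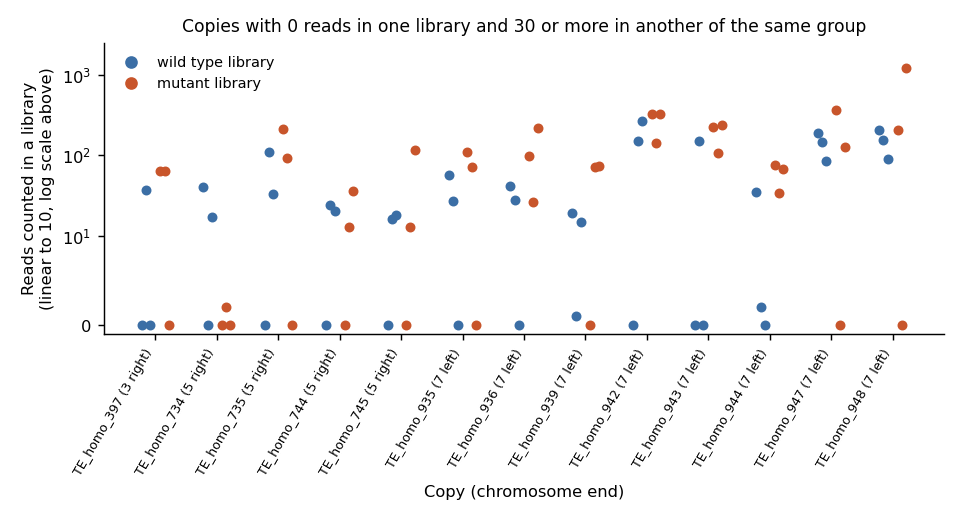
Reads per library (blue wild type, orange mutant, n = 3 each; the axis is linear to 10 and logarithmic above) in the 13 near-end copies with 0 reads in one library and 30 or more in another of the same group. In each of them the points of at least 1 group lie both at 0 and at 30 reads or more.

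Within these runs the count of a copy could be 0 in one library and large in another of the same group. TE_homo_948 had 207, 155 and 90 reads in wild type and 207, 0 and 1207 in the mutant, and TE_homo_943 had 0, 148 and 0 in wild type and 223, 105 and 236 in the mutant. Such a gap, 0 reads in one library and 30 or more in another of its group, was seen in 13 of the 258 near-end copies (5.04%) and in 40 of the 4700 interior copies (0.851%). All 13 overlap another copy, and none of them was raised. With all 117 copies that overlap another copy left out, 33 of the other 141 were raised.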

How the data were processed

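The 6 libraries, 3 of wild type and 3 of the mutant, were made from poly(A)-enriched RNA and do not mark strand, per the labels' protocols. Per the submitters' processing notes Trim Galore and STAR were used; no version is listed. The deposited values are whole-number read counts by the authors, per gene (4984) and per single TE copy (5074). How reads were counted, and what was done with reads matching several copies, is not given in the sources used here. Near-identical copies may thus have had reads shared, moved or dropped. Positions, families and strands come from the authors' deposited annotation, build ASM9120v1 per the file headers. Distances and overlaps were computed here.

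Counts were fitted with edgeR 4.0.16 (R 4.3.3; filterByExpr with a minimum count of 10 and a minimum total of 15, trimmed-mean scaling, quasi-likelihood test) in one table of 4865 genes and 2776 copies that passed the filter. Sums by end, superfamily and repeat family replaced the single near-end copies in further fits, and near-end against interior sums were tested with diffSpliceDGE. SE is the log2 fold change divided by the square root of the F statistic. Shares were compared with an exact permutation test (scipy 1.17.1). DESeq2 1.42.0 and limma 3.58.1 served as alternatives, and the scripts were tested on simulated data. Intervals and floors (3 counts) cover counting error only. Replicates of a group differed by more than sampling noise (chi-square per degree of freedom of 17.0 or more).

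Named were the called copies whose groups do not overlap and whose higher group averaged 1 CPM or more (15 largest rises, 10 largest falls), the most read copy of each end, called outermost copies, the 5 most read in wild type, the 3 longest and those beside the 20 kb limit; other copies were named after their values were seen. The copies, lists and tests were chosen with earlier results of these data known. The repeat family level and the groups of overlapping copies were added after seeing the data.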

Additional observations from a re-analysis of the deposited data

How the results depend on the processing

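The number of raised near-end copies, 55, was 31 when tested against a 2-fold change (edgeR), 36 with a limit of 10 kb in place of 20 kb, and 33 with copies that overlap another TE copy left out, an alternative chosen after seeing the data. The number lowered, 1, was 0 when tested against a 2-fold change, 2 with a limit of 40 kb, and 0 to 2 with one library left out. Raised superfamily sums, 4, were 7 with DESeq2 and 2 to 5 with one library left out, the lowest without wild-type replicate 1; repeat families with a smaller near-end change, 1, were 0 to 1. The other counts of copies, ends and families stayed within 1.5 times of their value in the alternatives run, and the share of counts kept its direction. Of the 55 raised copies, 39 lost the call in no alternative that tested them, apart from the test against a 2-fold change. Samples with the same replicate number did not deviate together in every pair (correlations of 0.022, 0.135 and 0.259), so the numbers were not taken as pairs. With the replicate number as a block, 53 copies, 21 end sums and 5 superfamily sums were raised, and not every sample correlated best with its own number.

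The sign turned for 6 named copies that did not pass in any of these fits. With one library left out at a time, their log2 fold changes ranged from -0.033 to 0.188 for TE_homo_137, from -0.015 to 0.358 for TE_homo_555, from -0.233 to 0.522 for TE_homo_2348, from -0.16 to 0.043 for TE_homo_2354, from -0.014 to 0.234 for TE_homo_2858 and from -0.225 to 0.152 for TE_homo_4870. With total counts alone and with scaling on nuclear genes, TE_homo_2354 lay at 0.033 and 0.0057 and TE_homo_4870 at 0.050 and 0.025. The cause was not tested. These scalings moved the median of all rows by less than 0.1 (log2).

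Depth limits the short copies: a count of 3 is 0.278 to 0.385 CPM, and 106 near-end copies were below the filter and were not tested. In 12 of these the lowest mutant library lay above the highest wild-type library, among them TE_homo_271 with 0 reads in each wild-type library and 14, 9 and 17 in the mutant. The opposite order was seen in 0 of the 106. Of all interior copies, tested or not, 12.7% had the mutant above, and of all rows tested 12.1%. Neither is a like set, since the 106 are low in counts, so whether these 12 stand out as a set was not tested. Reads of near-identical copies, the single mutant line and the unknown origin of the replicates limit what a single copy's value shows.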
